A study of Mus musculus with 8 samples.

Results

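The Hes and Hey genes encode basic helix-loop-helix repressors, most of which are known as targets of Notch signalling. The 6 genes followed here were Hes1, Hes5, Hes6, Hey1, Hey2 and Heyl. They were taken by symbol, as every probe set annotated to one of them, and made up 6 of the 18194 genes named singly on the array. They had 10 probe sets in all, of which 7, with at least 1 for each gene, passed the filter on low signal described below.

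When a Notch receptor meets a Delta or Jagged ligand on a neighbouring cell, its intracellular part is cut free and joins the DNA-binding protein RBPJ to switch on Hes and Hey genes. Hes1 and Hes5 repress proneural genes through Groucho-type (Tle) co-repressors and so hold retinal progenitors back from becoming neurons. Hes6 differs from them: in mouse it is induced by proneural factors and counters Hes1. The Hey proteins are best known in the heart and in blood vessels.

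The optic fissure, a groove on the ventral side of the optic cup, was dissected by laser from frozen sections. All embryos were wild-type mice of strain C57BL/6. Embryonic days 10.5 and 11.5 (E10.5 and E11.5) had 3 arrays each and day 12.5 (E12.5) had 2, called A to C within a stage, each of RNA pooled from 3 embryos. One label gives a single litter per pool and another gives separate litters. No agent or allele was tested, and the RNA went through repeated linear amplification before hybridization to Affymetrix arrays.

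Of 10 genes listed as markers of optic cup and fissure, 8 had an annotated probe set and all 8 were kept, with Six6 at 9.98 to 11.9 and Vax2 at 8.25 to 10.1 over the 8 arrays (log2 signal). The array medians lay between 4.37 and 4.48. The 99th percentile of signal was lower on E11.5 arrays (11.2 to 12.4) than on E10.5 arrays (12.5 to 12.9), with an exact two-sided permutation p of 0.10, which is the lowest such a design can give. The signal of the 3 prime minus that of the 5 prime probe set of the Gapdh control was 4.78 or more on both E12.5 arrays and 4.63 or less on every E11.5 array. For Actb those limits were 6.88 and 6.61, and the E10.5 arrays, at 6.83 to 6.96, overlapped E12.5. In a principal component analysis E10.5 C stood apart from E10.5 A and B on the first component (-81.6 against -24.7 and -12.1). The E11.5 arrays were spread along the second, at -80.8, -37.6 and -3.91 for A, B and C, with A at one end. Values without E10.5 C and E11.5 A are given where a call depends on them. In captured tissue, fewer cells of a type and less RNA per cell cannot be told apart.

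Start regions are shown for 3 of the members, Hes5, Hes6 and Hey2, from RefSeq (assembly GRCm38.p6). The sequences used held no window for Hes1, Hey1 or Heyl, so these were not searched. The regions are given because the high-affinity letters read by RBPJ, GTGGGAA, were found for Hes5 and Hey2 and not for Hes6. Notch is known to act on this family. Each line runs 5′ to 3′ on the gene's own strand from 250 bases before the annotated start to 10 bases after it, in lower case, with GTGGGAA or its reverse complement in capitals.
Hes5, chr4:154960673-154960932, plus strand: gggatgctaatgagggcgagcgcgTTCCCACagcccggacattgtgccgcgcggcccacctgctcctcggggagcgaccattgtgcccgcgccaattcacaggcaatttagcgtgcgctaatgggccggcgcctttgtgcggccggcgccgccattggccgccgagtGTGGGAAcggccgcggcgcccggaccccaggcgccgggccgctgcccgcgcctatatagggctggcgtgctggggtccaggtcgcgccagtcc
Hey2, chr10:30842774-30843033, minus strand: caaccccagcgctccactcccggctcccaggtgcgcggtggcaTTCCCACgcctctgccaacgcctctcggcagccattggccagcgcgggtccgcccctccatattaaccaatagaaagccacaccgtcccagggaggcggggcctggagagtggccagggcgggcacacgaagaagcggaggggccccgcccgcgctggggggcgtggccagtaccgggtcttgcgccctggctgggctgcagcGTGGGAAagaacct
Hes6, chr1:91413213-91413472, minus strand: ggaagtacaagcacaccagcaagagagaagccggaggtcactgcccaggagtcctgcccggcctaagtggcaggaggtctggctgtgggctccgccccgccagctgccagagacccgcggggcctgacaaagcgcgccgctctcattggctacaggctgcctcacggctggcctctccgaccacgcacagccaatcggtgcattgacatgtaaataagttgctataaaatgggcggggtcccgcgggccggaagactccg

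In the full windows of 300 bases, which reach 50 bases past the start, Hes5 held 2 matches to GTGGGAA. One began 83 bases before the start and the other, in reverse orientation, 226 bases before it. Hey2 also held 2, beginning 4 and, in reverse, 207 bases before its start. Neither of the 2 Hes6 windows held one, nor did any of these windows hold CACGTG or CACGCG, letters that Hes and Hey proteins read. The looser CACNAG was found 2 times in the full window of the Hes6 start shown. One match began 237 bases before the start and the other at base 16 after it, past the printed stretch. CACNAG was not found in the other Hes6 window or in those of Hes5 and Hey2. Both strands were searched for each motif. Among all 32851 windows in the table, 6.38% held GTGGGAA at least once and 0.256% held it at least 2 times. The share was 7.15% for CACGTG, 9.27% for CACGCG and 42.5% for CACNAG. A match of letters describes the sequence and shows no binding. Of the genes with the match, Hes5 was called at E12.5 and Hey2 was not, as given next.

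Hes5, Hes6 and Hey1 rose in the fissure between E11.5 and E12.5, while Hes1, Hey2 and Heyl did not pass the test. Of the 7 tested probe sets 4 were higher, at an adjusted p below 0.05 in limma, and none was lower, with 1 lower at an unadjusted p below 0.05. Over all 27022 probe sets 1.82% were called in this comparison, 1.62% higher and 0.2% lower. The members' median log2 difference was 1.20, against 0.10 for all probe sets.

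Hes5 had the largest rise in the family on one of its probe sets, while on the other the rise was smaller than those of Hes6 and Hey1. On 1456010_x_at its log2 signal was 6.45, 5.93 and 7.60 at E10.5, 5.94, 5.88 and 6.02 at E11.5, and 11.03 and 11.89 at E12.5. Both E12.5 arrays stood far above the 6 earlier ones, among which E10.5 C was the highest. E12.5 averaged 11.46 ± 0.61 (SD, n = 2) and E11.5 5.95 ± 0.07 (SD, n = 3), a difference of 5.51 (SE 0.43, 45.7-fold, limma adjusted p = 5.74e-05). Against E10.5, at 6.66 ± 0.86 (SD, n = 3), E12.5 was higher by 4.80 (SE 0.43, adjusted p = 0.000107). The difference between E11.5 and E10.5, -0.71 (95% confidence interval -1.55 to 0.13), did not pass (adjusted p = 0.323).

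The probe set that gives this value carries the suffix x_at, by which the manufacturer marks sets with some probes that can also match other transcripts. The other Hes5 probe set, 1423146_at, has no such suffix. It read 4.50, 4.78 and 4.86 at E10.5, 4.84, 4.63 and 4.40 at E11.5, and 5.58 and 6.06 at E12.5. Here too both E12.5 arrays lay above every earlier array. Of all probe sets 29.6% were likewise above every E11.5 array, and 19.3% above every E10.5 array. E12.5 exceeded E11.5 by 1.20 (SE 0.23, 2.30-fold, limma adjusted p = 0.0223) and E10.5 by 1.11 (SE 0.23, adjusted p = 0.0211). The probe sets of Hes5 thus shared the direction of the rise and not its size, 5.51 on one and 1.20 on the other. The call on 1423146_at was lost without E12.5 B (adjusted p = 0.436) and without E11.5 B (adjusted p = 0.0902), and the one on 1456010_x_at was kept whichever single array was left out.

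Hes5 was also the one member called in the test of whether the daily steps differed. The step E11.5 to E12.5 minus the step E10.5 to E11.5 was 6.23 (SE 0.69, adjusted p = 0.00415) on 1456010_x_at. Over all probe sets 0.241% were called in that test, 0.178% with a higher and 0.0629% with a lower second step. On 1423146_at it was 1.29 (SE 0.37, adjusted p = 0.214).

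Hes6, the family member tied to neuronal differentiation, rose in the same interval on its one tested probe set, 1436050_x_at. Its log2 signal was 9.06, 8.74 and 9.51 at E10.5, 8.47, 8.53 and 8.61 at E11.5, and 10.50 and 11.54 at E12.5. The E11.5 arrays were the lowest, all under every E10.5 array, and the E12.5 arrays the highest. Among all probe sets 19.3% were lower at E11.5 than at E10.5 with no overlap, and 29.6% were higher at E12.5 than at E11.5. E12.5 averaged 11.02 ± 0.73 (SD, n = 2) and E11.5 8.54 ± 0.07 (SD, n = 3), which differed by 2.48 (SE 0.36, 5.57-fold, limma adjusted p = 0.00482). Against E10.5 the difference was 1.91 (SE 0.36, adjusted p = 0.0132). E11.5 minus E10.5 was -0.56 (95% confidence interval -1.27 to 0.14, adjusted p = 0.348) and shrank to -0.11 after quantile normalization. Without E12.5 B the call against E11.5 was lost (1.96, adjusted p = 0.117), as was the one against E10.5 (1.39, adjusted p = 0.266).

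This probe set also carries the x_at suffix. The other Hes6 probe set, 1452021_a_at, whose suffix marks probes shared by several transcripts of the gene, lay below the signal filter. It read 3.80, 3.76 and 4.19 at E10.5, 3.53, 3.60 and 4.11 at E11.5, and 3.82 and 3.80 at E12.5, with overlap between all stages. With no filter on signal its difference between E12.5 and E11.5 was 0.06 (SE 0.20, adjusted p = 0.944). The rise of Hes6 therefore rests on 1 of its 2 probe sets.

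Hey1 rose as well, with a wide spread at E12.5. On probe set 1415999_at its log2 signal was 5.80, 6.28 and 5.84 at E10.5, 6.39, 6.29 and 7.01 at E11.5, and 7.89 and 9.67 at E12.5. No stage overlapped the next, although E10.5 B and E11.5 B differed by little. Between E11.5 and E10.5, 3.57% of all probe sets were likewise higher with no overlap, and between E12.5 and E11.5 29.6% were. E12.5 averaged 8.78 ± 1.26 (SD, n = 2) and E11.5 6.56 ± 0.39 (SD, n = 3), a difference of 2.22 (SE 0.44, 4.65-fold, limma adjusted p = 0.0287). Against E10.5, at 5.97 ± 0.27 (SD, n = 3), it was 2.81 (SE 0.44, adjusted p = 0.00471). E11.5 minus E10.5 was 0.59 (95% confidence interval -0.27 to 1.45, adjusted p = 0.421), and the daily steps were not shown to differ (1.63, adjusted p = 0.287).

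The call for Hey1 between E12.5 and E11.5 depended on single arrays. Without E12.5 B the difference was 1.32 (adjusted p = 0.417). It did not pass without E11.5 A (2.13, adjusted p = 0.130), E11.5 B (2.08, adjusted p = 0.116) or E10.5 B (2.22, adjusted p = 0.0569), nor with E10.5 C and E11.5 A both left out (adjusted p = 0.0599). After quantile normalization it was 1.997 (adjusted p = 0.0631). Against E10.5 the call held under every setting tried, with adjusted p between 0.000247 and 0.0498.

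**Figure D1:**
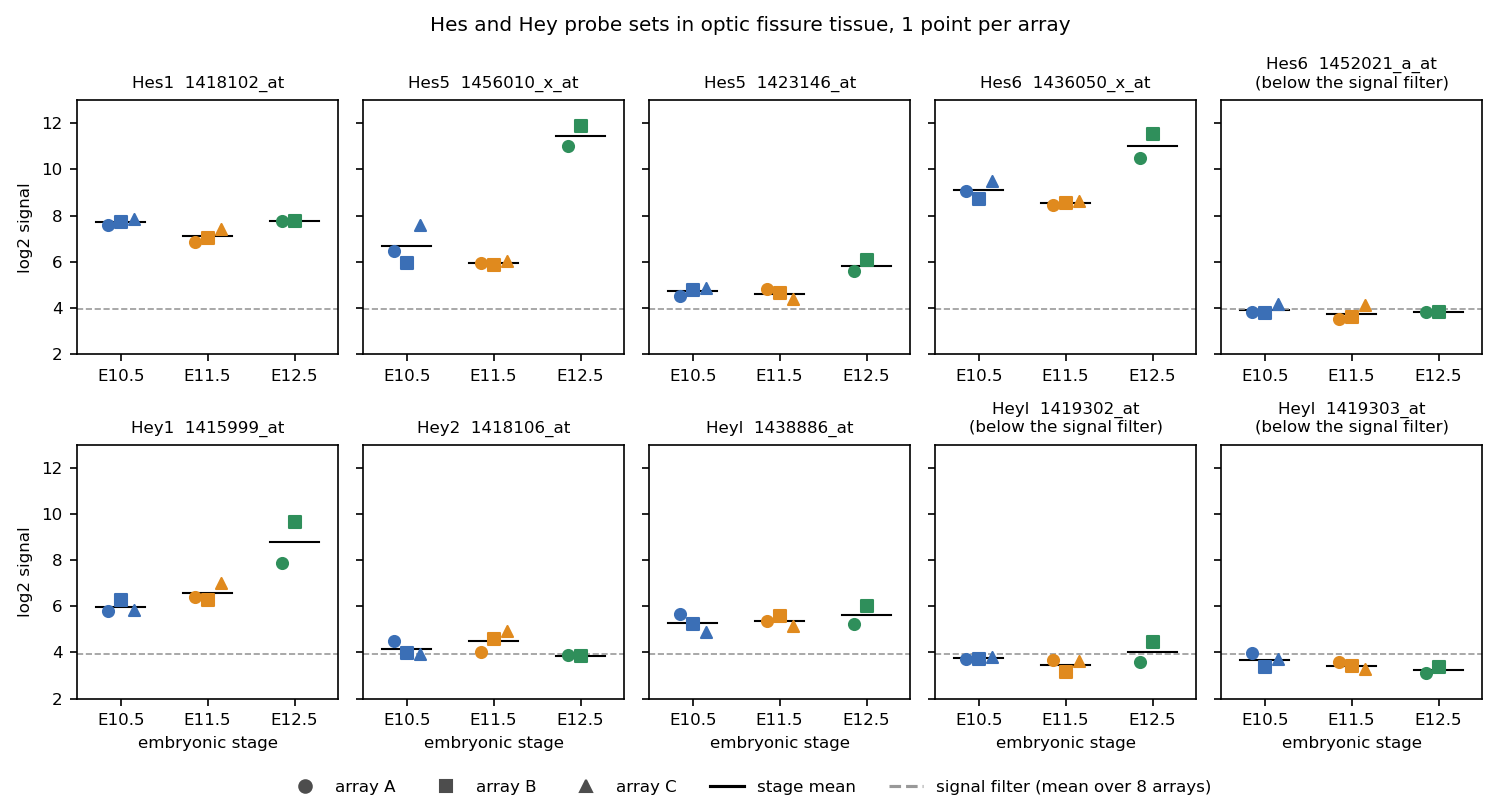
Log2 signal (y axis) of the 10 Hes and Hey probe sets by embryonic stage (x axis), with 1 point per array, a bar at each stage mean and a dashed line at the signal filter of 3.94. Both E12.5 arrays lie above all earlier arrays for both Hes5 probe sets, Hes6 1436050_x_at and Hey1, and the 3 probe sets under the filter stay near it at every stage.

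Hes1, the widely expressed Notch target, was not called in any comparison with arrays weighted equally. With estimated array weights, which did not converge, it was called in both daily comparisons (-0.64 and 0.73, adjusted p = 0.0183 and 0.000265). Its log2 signal on 1418102_at was 7.58, 7.71 and 7.85 at E10.5, 6.85, 7.05 and 7.42 at E11.5, and 7.78 on both E12.5 arrays. The E11.5 arrays were below all others and the outer stages overlapped. E11.5 minus E10.5 was -0.61 (SE 0.23, 95% confidence interval -1.11 to -0.10, limma adjusted p = 0.202), and E12.5 minus E11.5 was 0.67 (SE 0.26, interval 0.11 to 1.24, adjusted p = 0.226). As given for Hes6, such a lack of overlap was common among all probe sets. After quantile normalization these differences shrank to -0.38 and 0.40. E12.5 and E10.5 differed by 0.07 (interval -0.50 to 0.63, adjusted p = 0.907).

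Hey2, known for its part in heart and artery development, read near the signal filter. Its log2 signal on 1418106_at was 4.49, 3.96 and 3.95 at E10.5, 4.001, 4.59 and 4.95 at E11.5, and 3.88 and 3.83 at E12.5. The E12.5 arrays were the lowest, below every earlier array. E12.5 minus E11.5 was -0.66 (SE 0.26, 95% confidence interval -1.23 to -0.08, limma adjusted p = 0.243). Over all probe sets 14.1% were lower at E12.5 than at E11.5 with no overlap, and 25.7% lower than at E10.5. The difference between E11.5 and E10.5, 0.38 (interval -0.14 to 0.89), did not pass either (adjusted p = 0.388). With estimated array weights, which did not converge, E12.5 minus E11.5 was -0.73 (limma adjusted p = 0.000230). Those weights rested almost wholly on E11.5 B. They called 8533 of all 27022 probe sets higher and 3987 lower in this comparison, against 438 and 54 with equal weights.

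Heyl, which is known from vascular smooth muscle and other Notch-responsive cells, had 3 probe sets, and none was called. On 1438886_at it read 5.69, 5.22 and 4.89 at E10.5, 5.36, 5.59 and 5.13 at E11.5, and 5.21 and 6.02 at E12.5, so all stages overlapped. E12.5 minus E11.5 was 0.26 (95% confidence interval -0.40 to 0.92, limma adjusted p = 0.714). The other probe sets, 1419302_at and 1419303_at, lay below the filter, between 3.16 and 4.47 and between 3.09 and 3.97. With no filter their differences between E12.5 and E11.5 were 0.55 and -0.20, so the probe sets of Heyl did not share a sign.

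**Figure D2:**
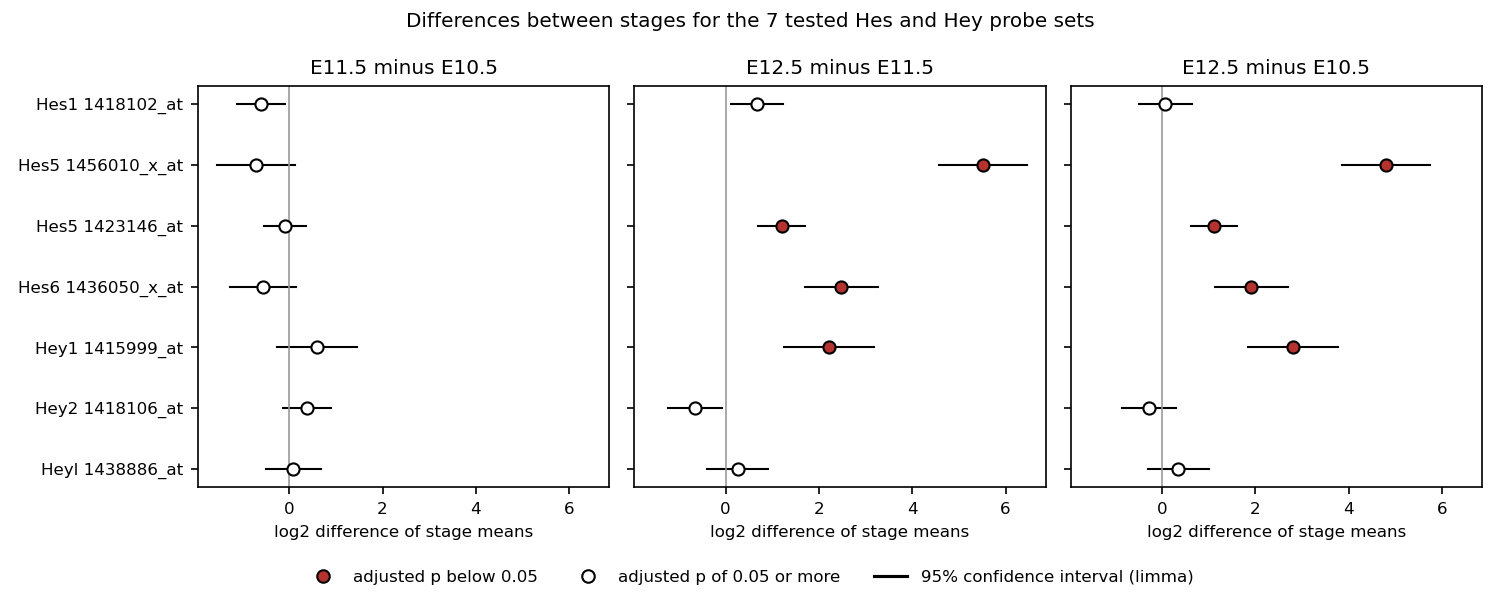
Log2 difference of stage means (x axis) for the 7 tested probe sets (rows) in the 3 comparisons between stages; lines are 95% confidence intervals from limma and filled points passed an adjusted p of 0.05. The same 4 probe sets pass in both comparisons with E12.5, and 0 pass between E11.5 and E10.5.

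Between E11.5 and E10.5 none of the 7 tested probe sets was called by limma, and 1, that of Hes1, was lower at an unadjusted p below 0.05. Over all probe sets 0.126% were called there, 0.0962% higher and 0.0296% lower. The members' median difference was -0.09, against -0.18 for all probe sets, which quantile normalization moved to -0.02. Between E12.5 and E10.5, 4 of the 7 were higher and none lower, at an unadjusted p below 0.05 as well, where 4.64% of all probe sets were called 3.08% higher and 1.56% lower. The called probe sets were again both of Hes5, 1436050_x_at of Hes6 and that of Hey1. This comparison shares its E12.5 arrays with the one against E11.5. In the F test for any stage difference the same 4 passed, with adjusted p between 9.94e-05 for Hes5 (1456010_x_at) and 0.0258 for its other probe set, where 2.92% of all probe sets passed.

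The E12.5 arrays differed from each other for the members that rose. E12.5 B exceeded E12.5 A by 1.78 for Hey1, 1.04 for Hes6, and 0.86 and 0.48 for the Hes5 probe sets, while over all probe sets the median of that difference was -0.05. Heyl (1438886_at) was also higher on E12.5 B, by 0.81, and Hey2 differed by -0.05. Of the 8 genes listed as markers of postmitotic neurons 7 were kept, and their summed signal was 13.1 on E12.5 B and 8.61 on E12.5 A, against 6.62 to 6.99 on the E11.5 arrays (log2). Nefl, a neurofilament subunit, made much of this at 12.7 and 7.24. Of the 7, 5 were called higher at E12.5 than at E11.5, where 1.62% of all probe sets were. Tubb3, Dcx and Stmn2 averaged below the signal filter at both earlier stages and were kept only through their E12.5 values. Dcx was among the 5 called, so the count and the sum rest in part on genes kept that way. Unlike the neuron sum, the Gapdh 3 prime minus 5 prime signal was lower on E12.5 B (4.78) than on E12.5 A (5.17). That of Actb was 7.21 on E12.5 B and 6.88 on E12.5 A. Neuron markers were high on the arrays where Hes5, Hes6 and Hey1 were high, and their part in the rises was not tested.

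Of 6 other members of the Hes family 5 had a probe set and 3 were kept, Hes7, Bhlhe40 and Bhlhe41, with 0 called between E12.5 and E11.5 by limma (1 at an unadjusted p below 0.05). Bhlhe40, a stress-responsive repressor, had the largest of their differences between E12.5 and E11.5, -0.96 (adjusted p = 0.0947). Hes2 and Hes3 read between 3.27 and 3.49 on every array, below the filter.

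Upstream of the members, some ligands, receptors and modifiers of the Notch pathway rose at E12.5 and most did not pass. The lists were written with earlier results of these arrays known. Of 5 kept ligands 2 were higher than at E11.5, with a median of 0.03 against 0.11 for all genes. Of all probe sets 1.62% were called higher. Dll1, a Delta ligand made by newly forming neurons, read 8.08 and 8.61 at E12.5 against 4.27, 4.48 and 4.69 at E11.5 (limma adjusted p = 2.91e-05). Dner, a neuronal Delta-like protein, read 5.16 and 8.90 at E12.5 and was called higher (adjusted p = 0.0155). At 2.78 to 3.22 it lay below the signal filter on all earlier arrays and was kept only through its E12.5 values, so no size is given for its rise. Jag1, a Jagged ligand, had a difference of -1.05 (adjusted p = 0.250). Of the 4 receptors Notch1 alone was called, at 8.57 and 9.10 against 6.68, 7.15 and 7.38 (adjusted p = 0.0122), while Notch2 and Notch3 had -0.29 and -0.13. Mfng was called among the 3 Fringe enzymes, which add sugars to Notch. It read 7.42 and 8.79 at E12.5 against 5.70, 5.31 and 5.32 at E11.5 (adjusted p = 0.00314).

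Among 17 kept genes of the pathway core and its regulators 3 were higher at E12.5 than at E11.5 and none lower (median 0.31, against 0.11 for all genes). Over all probe sets 1.62% were called higher and 0.2% lower in this comparison. They were Nrarp, a Notch target that feeds back on the pathway, by 1.81 (adjusted p = 0.0139), the acetyltransferase Kat2b by 2.01 (adjusted p = 0.0385) and Rbpj itself by 1.58 (adjusted p = 0.0386). The protease Adam10, which cuts the ligand-bound receptor, had a difference of 1.17 (adjusted p = 0.177). Of 8 co-repressors, with a median of 0.19, Tle1 and Tle4 were higher, by 1.96 (adjusted p = 0.00831) and 1.54 (adjusted p = 0.0423).

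The proneural genes that Hes1 and Hes5 are known to repress were high at E12.5 in part. Of 10 listed, 8 had a probe set, 6 were kept and 4 of these, Atoh7, Neurog2, Neurod1 and Insm1, were called higher at E12.5 than at E11.5. Among all probe sets 1.62% were. Atoh7, Neurog2 and Neurod1 averaged below the signal filter at both earlier stages and were kept only through their E12.5 values, so no size or median is given for them. Atoh7, needed for retinal ganglion cells, read 11.46 and 12.51 at E12.5 against 3.63, 3.76 and 3.66 at E11.5 (limma adjusted p = 7.69e-08). Neurog2, a proneural factor of progenitors, read 9.74 and 11.02 against 3.66, 3.65 and 3.15 (adjusted p = 1.52e-06). Hes5 and these genes were thus both high on the E12.5 arrays. Such arrays hold many cells together and do not show whether a repressor and its targets were in the same cells.

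**Figure D3:**
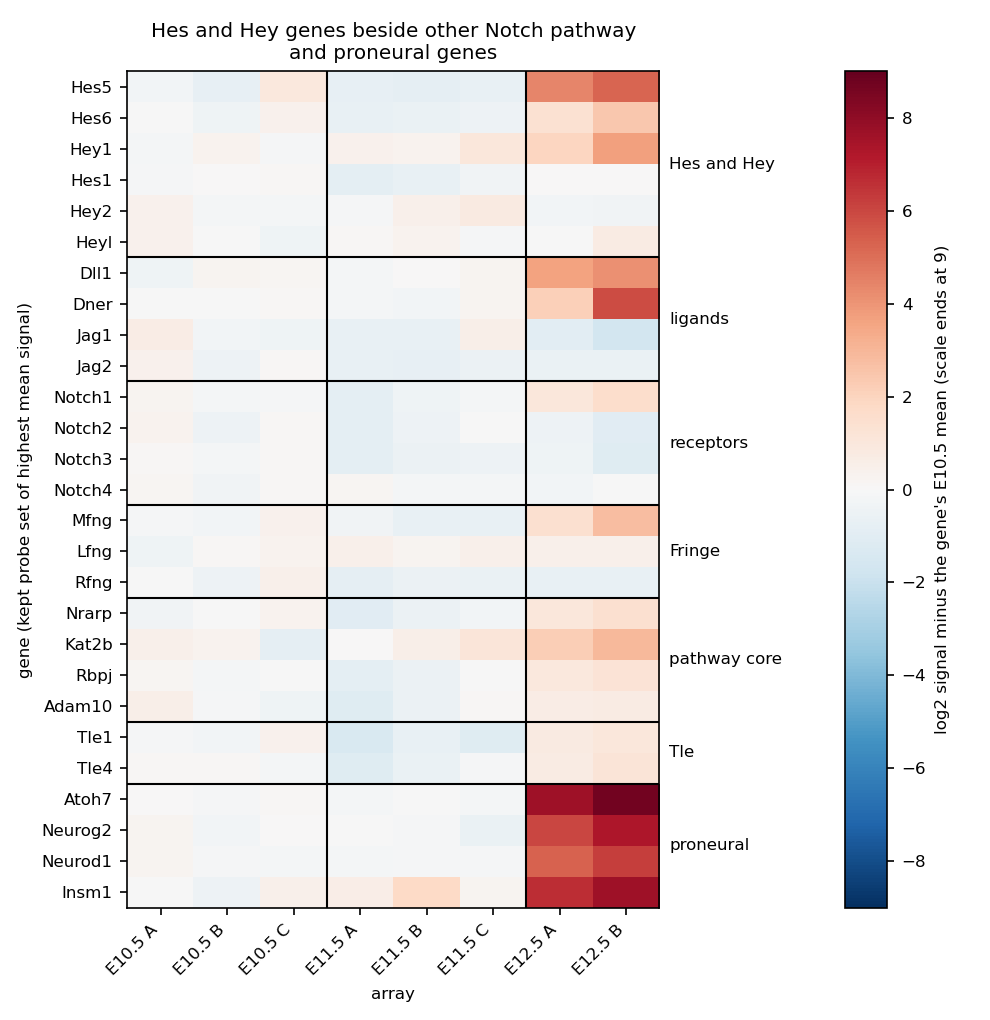
Log2 signal minus the gene's E10.5 mean (colour) for the 6 members and 21 other genes of the Notch pathway and of neurogenesis (rows) on each of the 8 arrays (columns). Hes5, Hes6, Hey1, Dll1, Dner, Notch1, Mfng and the 4 proneural genes are high on the E12.5 arrays, and Hes1, Hey2, Heyl, Jag1 and the other Notch receptors are not. For the pathway core, co-repressors and proneural genes all genes called between E12.5 and E11.5 are shown, and most uncalled ones are not. The rise of those rows thus follows from that choice. Over all 17 kept core genes and 8 co-repressors the median differences were 0.31 and 0.19.

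Markers of blood vessels, where Hey genes are known to act, were set beside Hey1, and their part in its rise was not tested. Of 12 endothelial markers 6 were kept and 0 were called between E12.5 and E11.5 by limma (1 at an unadjusted p below 0.05), with a median of -0.05. Their summed signal was 8.29 and 8.32 at E12.5 against 7.81 to 8.02 at E11.5 (log2). Kdr, the main VEGF receptor, made much of this sum, at 7.23 and 7.43 against 5.93 to 6.38. It had the largest difference, 1.26 (adjusted p = 0.0604), and the other kept markers had differences between -0.20 and 0.01. Pecam1, Cdh5, Tie1 and Emcn lay below the filter. Of 8 markers of mural cells, the contractile cells of vessel walls, 6 were kept and 0 were called (2 unadjusted, median -0.24), with a sum of 7.24 and 7.06 at E12.5 against 7.59 to 7.94 at E11.5. For periocular mesenchyme 7 of 10 markers were kept and 0 were called in this interval (3 unadjusted, median -0.40). Its sum was 9.48 and 8.50 at E12.5 against 9.37 to 10.2 at E11.5, and for 5 kept lens markers, with 0 called (0 unadjusted), it was 8.86 and 8.51 against 8.76 to 9.11. All 6 pigment epithelium markers were kept, 0 were called between E12.5 and E11.5 (2 unadjusted), and their sum was 12.4 and 11.7 against 11.5 to 12.9.

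Genes with patterns most like each member were found by Pearson correlation over the 8 arrays among 12563 probe sets of single genes with a range of at least 1. These arrays share stage and amplification, so high values are common. For Hes5 (1456010_x_at) they were Olfm1, a secreted glycoprotein of neurons, Srgap3, the neuronal zinc finger gene Insm1, the cadherin Cdh4 and the orphan receptor Gpr85, with r between 0.981 and 0.989. For Hes6 they were Mfng, Sh3glb1, Fgf15, Rassf4 and again Gpr85, with r between 0.982 and 0.989. For Hey1 they were Tmem178, Dcaf5, Ndrg4, Fry and Sybu, with r between 0.979 and 0.991. The Insm1 probe set matched to Hes5, Fry and Sybu averaged below the signal filter at both earlier stages. They were kept only through their E12.5 values, so the filter favoured their match to members that rose at E12.5. Hes1 was matched by Rfx7, the chromatin genes Ezh2 and Actl6a, Peg12 and Ndufc1, all lowest at E11.5, with r between 0.977 and 0.992. Hey2 (Prkcb, Rgs9bp, Frem2, Fgfr2 and Tpm1, r from 0.934 to 0.957) and Heyl (Arfgef3, Gse1, Rab3a, Rab2a and Cntn1, r from 0.831 to 0.927) had looser matches. By Spearman correlation at most 1 of the 5 genes was kept for any member, and 0 for Hes5 and Hes6, so these names depend on the measure.

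Within the family, Hes5 (1456010_x_at) and Hes6 (1436050_x_at) ran closest over the 8 arrays, with Pearson's r = 0.98 as a description. For Hes5, r with Hey1 was 0.85, with Hes1 0.58, with Heyl (1438886_at) 0.35 and with Hey2 -0.58. The probe sets of Hes5 correlated with each other at 0.95 and those of Hes6 at 0.16.

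**Figure D4:**
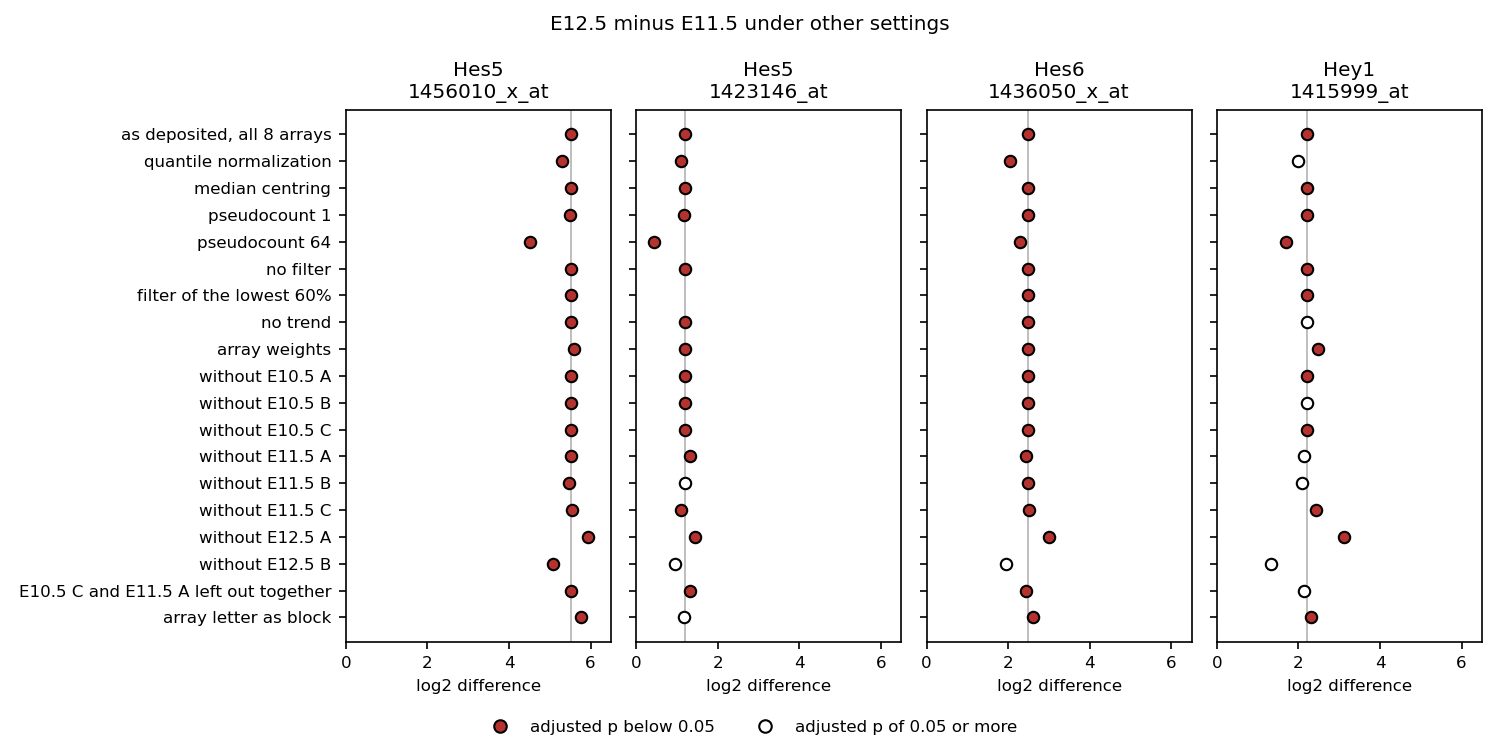
Log2 difference of E12.5 minus E11.5 (x axis) for the 4 called probe sets under each setting (rows), with filled points where the adjusted p was below 0.05. Hes5 1456010_x_at passes in every setting, and the other 3 are lost without E12.5 B; Hes5 1423146_at fell below the stricter filter and has no value there.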

How the data were processed

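The deposited table gave log2 signals of 45101 probe sets on each array. Per the submitters' processing notes GCOS 1.4 is listed without a role, and summarization, background correction and normalization are not given in the sources used here. Array values were used as deposited. The 64 control probe sets and the lowest 40% by mean signal (below 3.94) were left out, which kept 27022. Names came from the platform's 2016 annotation, updated through RefSeq gene identifiers (34754 of 34958 singly named probe sets matched). The promoter windows are RefSeq's.

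Stage was fitted over all 8 arrays in limma 3.58.1 (R 4.3.3) with trended empirical Bayes, 5 residual degrees of freedom, two-sided p-values and Benjamini-Hochberg adjustment over all kept probe sets, threshold 0.05. The fit was tested on simulated data. Calls of a gene list use its kept probe set of highest mean signal per gene. Named were all members, up to 4 genes per list with the smallest p between E12.5 and E11.5 Notch1, Dll1, Atoh7 and Neurog2, and the 5 genes most like each member. The members and lists were chosen with earlier results of these data known. The labels call the arrays biological replicates; whether pools came from separate litters is given in conflict, so p-values measure the spread between these arrays. Alternatives covered normalization, pseudocounts, filters, the prior, array weights, left-out arrays and the array letter as a block. The letters do not pair arrays: same-letter deviations correlated between -0.39 and 0.13. Precision is limited by how few arrays there were.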

Additional observations from a re-analysis of the deposited data

Results flagged for a closer look

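The daily steps of Hes5 (1456010_x_at) differed: the step from E11.5 to E12.5 minus the step from E10.5 to E11.5 was 6.23 on the log2 scale (SE 0.69, limma adjusted p = 0.00415), and both E12.5 arrays lay above all 6 earlier ones. The steps share the E11.5 arrays. Under the 18 alternatives this difference was between 4.95 and 6.66, with adjusted p between 5.61e-07 and 0.0431. It is a contrast of the same arrays as the comparisons above and no independent result. The other Hes5 probe set, 1423146_at, gave 1.29 (SE 0.37, limma adjusted p = 0.214) and was not called. The result thus rests on 1456010_x_at, whose suffix marks probes that can also match other transcripts. Over all probe sets the median of this contrast was 0.32, and 0.178% were called with a higher second step.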

How the results depend on the processing

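Hes5 on 1456010_x_at was called under all 18 alternatives, with a difference between 4.52 and 5.95 for E12.5 minus E11.5 and between 4.09 and 5.27 for E12.5 minus E10.5. The count of member probe sets called higher at E12.5 than at E11.5, 4, was 1 to 4 when single arrays were left out, 1 without E12.5 B and 2 without E11.5 B, and it was 3 after quantile normalization and 5 with array weights, which added Hes1 (0.73, adjusted p = 0.000265). Against E10.5 the count, 4, was 2 to 4, with 2 without E12.5 B. For the difference between the daily steps the count, 1, was 1 to 2, with 2 without E12.5 A, which added Hes6 (3.56, adjusted p = 0.0199). With array weights the count for the steps was 5 and 1 member was called lower, and 1 was called lower in each of the comparisons of E11.5 with E10.5 (Hes1, -0.64) and E12.5 with E11.5 (Hey2, -0.73). Those weights did not converge and gave E11.5 B 218, against 0.163 to 1.20 for the others. Without the trend Hey1 was lost between E12.5 and E11.5 (adjusted p = 0.0506).

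With the array letter as a replicate block 3 members were called higher in each comparison with E12.5, Hes5 1423146_at being lost (1.18, adjusted p = 0.0750, and 1.09, adjusted p = 0.0702), and 1 for the steps. The letters do not pair the arrays.

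Sign changes met only differences that were not called, apart from Hes6. For Hes6 the other probe set gave -0.10 between E12.5 and E10.5. For Hes5 1423146_at, E11.5 minus E10.5 lay between -0.20 and 0.0158 over left-out arrays, with 0.0158 without E11.5 C. Hes1 at E12.5 minus E10.5 lay between -0.000867 and 0.13. Heyl changed sign most. Its E11.5 minus E10.5 lay between -0.10 and 0.30, with -0.10 without E10.5 C, -0.02 without E11.5 B, -0.10 without E10.5 C and E11.5 A together, and -0.27 and -0.26 on its other probe sets. Its E12.5 minus E11.5 lay between -0.14 and 0.66, with -0.20 on 1419303_at, and its E12.5 minus E10.5 between -0.0533 and 0.75, with -0.47 on 1419303_at. The difference between its steps lay between -0.24 and 0.57. It was -0.04 without E10.5 A, -0.06 without E11.5 C, -0.24 without E12.5 B, -0.00559 after quantile normalization and -0.24 with array weights. The cause of these changes was not tested.

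Over all probe sets the count called higher between E12.5 and E11.5, 438, lay between 111 and 8533 and the count called lower, 54, between 3 and 3987, the highest with array weights. Against E10.5 the counts, 833 and 422, lay between 187 and 1933 and between 22 and 1438. Between E11.5 and E10.5 the counts, 26 and 8, lay between 0 and 1167 and between 0 and 3850, and for the steps 48 and 17 lay between 9 and 9171 and between 0 and 2880. The 2 arrays at E12.5 limit the precision of every comparison with that stage.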
